A study of Homo sapiens with 6 samples.

Results

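Cyclins and cyclin-dependent kinases (CDKs) were examined among the mRNAs recovered with AEG-1, the ER membrane protein encoded by MTDH. The genes were chosen by symbol alone: those in the site lists that start with CDK followed by a digit or N, those that start with CCN followed by a letter from A to Y, and MKI67. The rule found 44 genes of 8197 with a site in any library, each on 1 RefSeq mRNA, and 37 of them are cyclins, CDKs or CDK inhibitors. The other 7 are MKI67 and 6 genes that share the symbol start as partners, such as CDK5RAP1. A RefSeq gene table holds 71 protein-coding genes with such symbols, and the 27 without a listed site, among them CCND2, CCND3 and CDK3, were not analysed here.

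All 6 libraries came from AEG-1-14, a line made from HepG3 cells, called hepatoblastoma in the labels, that stably carries AEG1 tagged with HA at its C-terminus, so the controls carry the tagged protein too. The 4 groups were HITS-CLIP AEG1 (2 libraries, UV at 254 nm), HITS-CLIP negative controls (2 libraries, no UV), PAR-CLIP AEG1 (1 library, UV at 365 nm) and a PAR-CLIP negative control (1 library, no UV). In both methods light bonds RNA to the proteins that touch it, the tagged protein is precipitated through its HA tag, and the RNA fragments left after RNase are sequenced. Each list gave called sites as a start, an end and a log2 score on an mRNA, with no read counts, so read depth is unknown, and no source says whether replicates were separate cultures.

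The AEG1 libraries held 6378 and 5651 sites by HITS-CLIP and 60085 by PAR-CLIP, against 60 and 90 in HITS-CLIP negative controls 1 and 2 and 121 in the PAR-CLIP control. Of 10 fixed liver and hepatoblastoma markers, 9 had a site in PAR-CLIP AEG1 and in both HITS-CLIP AEG1 libraries, with DLK1 absent from every list. Among markers of other cells, 1 of 5 for blood, 0 of 4 for endothelium and 1 of 5 for connective tissue had a PAR-CLIP AEG1 site. MTDH itself held 10 and 8 sites in HITS-CLIP AEG1 and 12 in PAR-CLIP AEG1, against 1 in the PAR-CLIP control and none in the other controls.

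CDKs are protein kinases that need a bound cyclin to act. D-type cyclins with CDK4 and CDK6, E- and A-type cyclins with CDK2, and B-type cyclins with CDK1 drive successive steps of the cell cycle, and CDKN proteins inhibit them, while another branch of the family, such as CDK7, CDK9 and CDK12 with cyclins H, T1 and K, acts on RNA polymerase II. These are proteins of the cytosol and nucleus, made without a signal sequence for the ER. CDK6 mRNA is known for a long 3' UTR, a region regulated by miRNAs in many tissues, and MKI67 encodes Ki-67, the nuclear antigen used to count cycling cells.

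Like nearly all listed genes, the CDK and cyclin mRNAs were seen in PAR-CLIP. Most genes were absent from HITS-CLIP AEG1, and the share with a site there was lower among the 44. PAR-CLIP AEG1 held 408 sites on the 44 mRNAs and its control held 0. All 44 had at least 1 PAR-CLIP AEG1 site, as did 97.6% of all genes with a site in any library. HITS-CLIP AEG1 replicates 1 and 2 held 12 and 4 sites on these mRNAs, against 1 and 2 in the HITS-CLIP controls. Sites were present on 8 of the 44 in either HITS-CLIP AEG1 library (18.2%, against 27.3% of all genes), and on 3 of 44 in both (6.82%, against 16.1% of all genes). These 3 were CDK6, MKI67 and CCNYL1, a relative of cyclin Y. The other 5, each with 1 site in replicate 1 alone, were CDK4, CCND1, CDKN1B, CDK11B and CDK5RAP3.

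HITS-CLIP AEG1 libraries averaged 8 ± 5.66 sites on the 44 mRNAs and the controls 1.5 ± 0.707 (SD, n = 2 each), a difference of 6.5. The exact permutation test (two-sided) gave p = 0.333, the smallest that 2 against 2 libraries allow. Both AEG1 counts lay above both control counts, but most of the difference came from AEG1 replicate 1, and it was 2.5 without that library. Against the size of each library the order turned round, though for negative control replicate 1 this rests on 1 MKI67 site. The 44 mRNAs took 0.188% of the sites in HITS-CLIP AEG1 replicate 1 (exact Clopper-Pearson 95% interval 0.0973 to 0.328) and 0.0708% in replicate 2 (0.0193 to 0.181), against 1.67% (0.0422 to 8.94) and 2.22% (0.270 to 7.80) in the controls. In PAR-CLIP AEG1 the share was 0.679% (0.615 to 0.748), and in its control 0 of 121 sites, which allows a share of up to 2.48% (3 counts of the total; the plot of shares draws the exact upper bound, which is higher). Without MKI67 the shares were 0.125% and 0.0531% in HITS-CLIP AEG1, against 0% and 1.11% in the controls, and without sites of 25 nt or less 0.151% and 0.0381%, against 0% and 3.45%. The control intervals, which cover counting error only, rest on 1 and 2 sites.

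**Figure D1:**
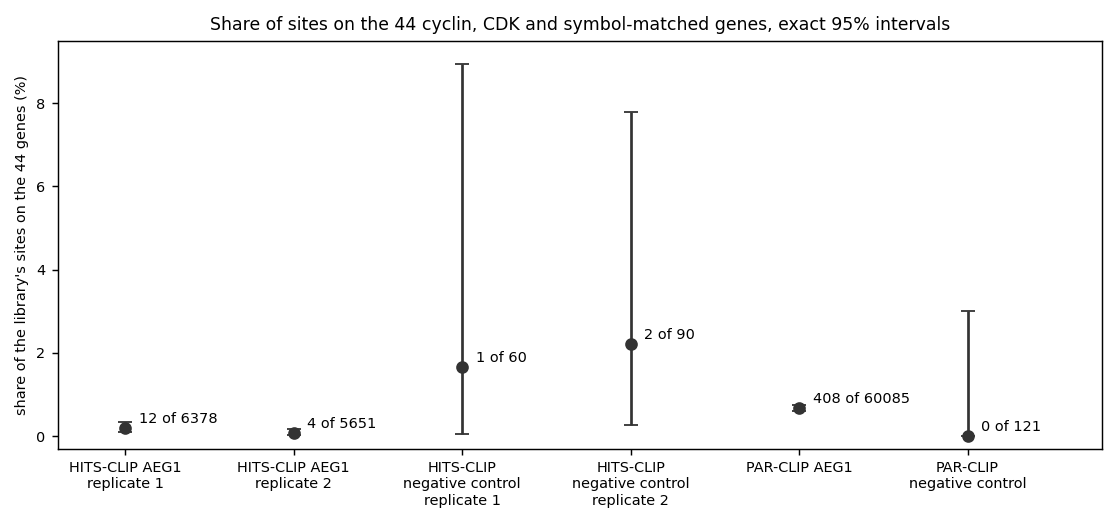
Share of each library's sites that lay on the 44 mRNAs, in percent, with exact 95% intervals as bars and the counts beside the points. The PAR-CLIP AEG1 share of 0.679% stands above both HITS-CLIP AEG1 shares, 0.188% and 0.0708%, while the controls, with 1, 2 and 0 sites, have wide intervals.

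**Figure D2:**
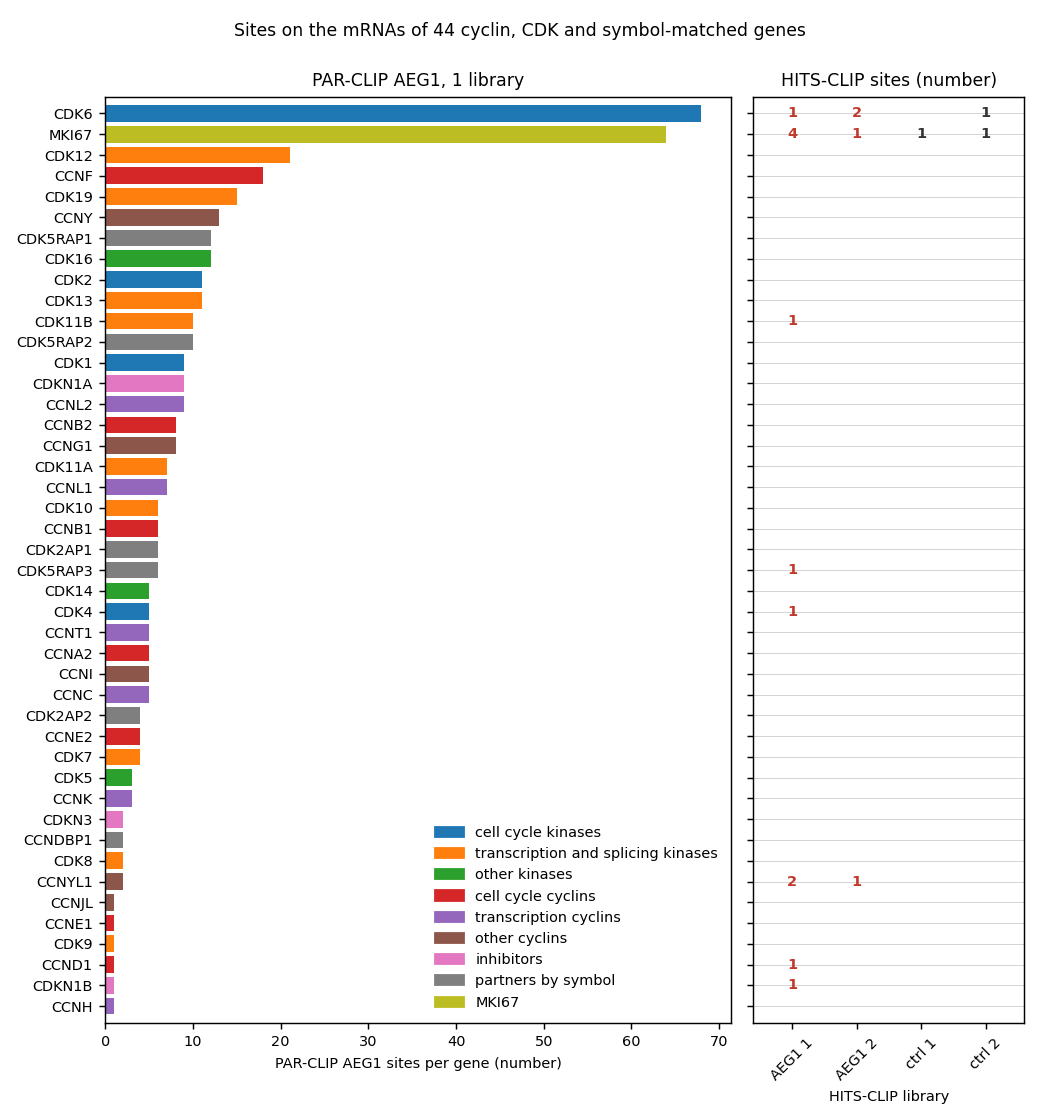
Number of PAR-CLIP AEG1 sites on each of the 44 mRNAs (bars, coloured by role) and the number of sites in each HITS-CLIP library (figures in the right panel, AEG1 in red, controls in grey). CDK6 with 68 and MKI67 with 64 sites stand apart from the rest, which hold 21 or fewer, and 8 mRNAs have a HITS-CLIP AEG1 site.

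Among the kinases of the cell cycle, CDK6 held 68 PAR-CLIP AEG1 sites, rank 7 of 8002 genes by this number, and its close relative CDK4 held 5. CDK6 sites ran from nt 134 to nt 11690 of its mRNA, had a median width of 77 nt and covered 5900 nt, or 50.5% of the length up to the furthest site end. CDK4 sites ran from nt 132 to nt 1450 and covered 85.0% of that length, the highest share among the 44. A single CDK4 site was 582 nt wide, from nt 449 to nt 1030, with a score of 10.69. The number of sites therefore does not order these kinases by the share of that length that was covered. In nt, more was covered on CDK6, 5900 against 1232 on CDK4. CDK2, the partner of cyclins E and A, held 11 sites over 47.4% of its reach, and CDK1, the mitotic kinase, held 9 over 65.4%. All 4 exceeded the median of 22.6% covered over all 8002 genes with a PAR-CLIP AEG1 site.

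CDK6 sites were spread along the whole mRNA. Each window of 1000 nt held between 3 and 10 site centres, and the last 690 nt held 4. The cover was densest at nt 1001 to 2000 (75.9%), nt 8001 to 9000 (71.7%) and nt 3001 to 4000 (70.3%), and lowest at nt 7001 to 8000 (26.6%). The longest stretches without a site were 741 nt, from nt 5666 to nt 6406, and 467 nt, from nt 4504 to nt 4970. The deposited score is on a log2 scale and, as read from its values, relative to a constant of each transcript, so scores are compared here only within an mRNA. CDK6 scores ranged from 6.03 to 10.58. The 3 highest lay in the first 2000 nt, at nt 884 to 1071 (10.58), nt 1574 to 1792 (9.82) and nt 703 to 866 (9.82), and single sites further on reached 9.70 before nt 5000, 9.58 between nt 6001 and 7000, and 9.29 between nt 10001 and 11000. The PAR-CLIP negative control had no site on CDK6. Where coding sequence ends on this mRNA was not analysed here, so the sites were not divided between coding sequence and 3' UTR.

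MKI67 gave a similar PAR-CLIP picture. Its 64 sites, rank 10 by number, ran from nt 33 to nt 11272 and covered 5839 nt, or 51.8% of that length. The highest scores lay at the 5' end, with 8.54 at nt 33 to 233, 8.12 at nt 552 to 755 and 7.71 at nt 403 to 521, against a median of 5.54 over its sites. Sites centred from nt 6001 to 8000 scored 5.54 or less, and those centred from nt 8001 to 10000 reached 7.35. The cover was lowest at nt 10001 to 11000 (12.2%), and the longest gap, of 525 nt, ran from nt 9967 to nt 10491.

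**Figure D3:**
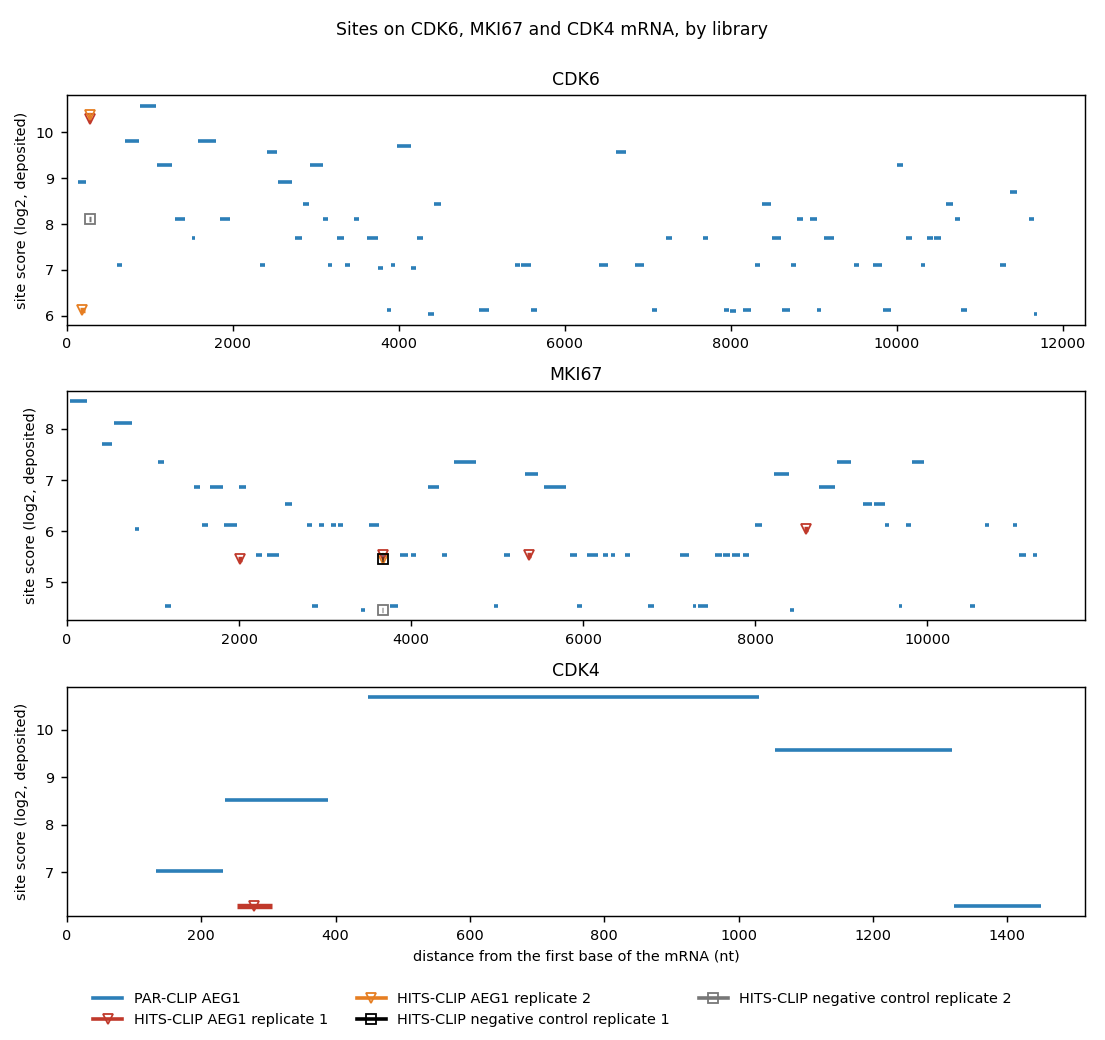
Sites on CDK6, MKI67 and CDK4 mRNA, with the distance from the first base in nt on the x axis and the deposited log2 score on the y axis. Bars span each site, in blue for PAR-CLIP AEG1, and HITS-CLIP sites carry triangles (AEG1) or squares (controls). On CDK6 the HITS-CLIP AEG1 sites at 10.29 and 10.37 and the control site at 8.12 share 1 place near the 5' end, and on MKI67 sites of 2 AEG1 and 2 control libraries share nt 3660.

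CDK6 and MKI67 are among 108 genes whose furthest PAR-CLIP site end lay at 10000 nt or more, a group formed after the values were seen. The median of this group was 23 sites, 1.84 sites per 1000 nt of reach and 12.7% covered. CDK6 held 5.82 sites per 1000 nt (rank 4 of 108) and MKI67 5.68 (rank 6), and by covered share they ranked 12 and 11. Over all 8002 genes the median was 2.93 sites per 1000 nt, and CDK6 and MKI67 ranked 860 and 968. Other genes among the 44 with long reach were less covered. CDK12 was covered over 28.4% of 5904 nt and CDK19 over 15.7% of 6090 nt. CCNT1, the cyclin partner of CDK9 in transcription elongation, held 5 sites up to nt 5160 and 8.26% covered, and CDK14, which pairs with cyclin Y, held 5 up to nt 4757 and 5.59% covered.

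**Figure D4:**
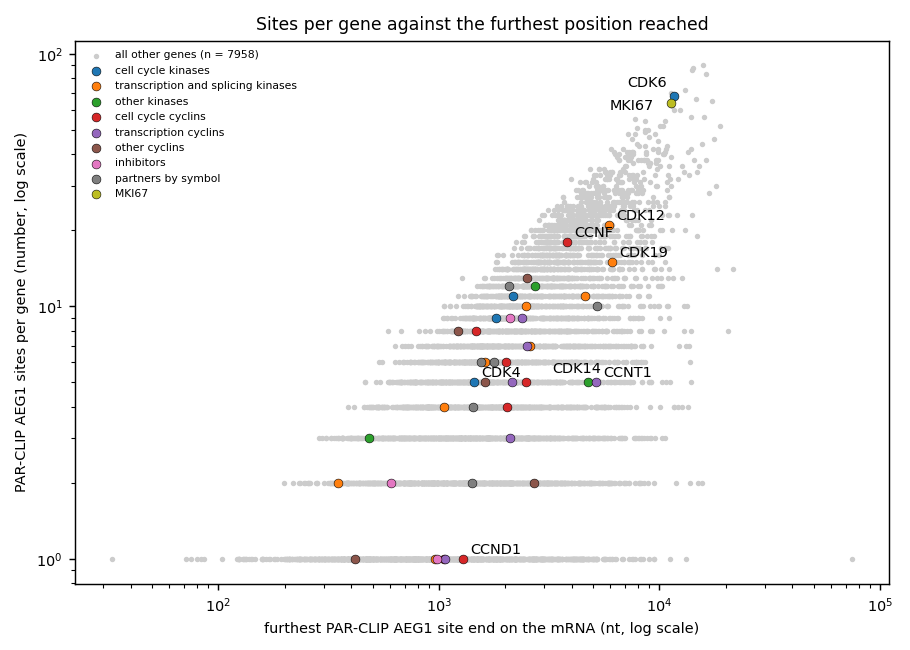
Number of PAR-CLIP AEG1 sites per gene against the furthest site end on the mRNA in nt, both on log scales, with the 44 genes coloured by role and the other 7958 genes in grey. CDK6 (68 sites) and MKI67 (64) lie near the top of genes of similar reach, whereas CCNT1 and CDK14, with 5 sites each, lie low.

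In PAR-CLIP the medians of the 44 genes lay near those of all genes. The 44 had a median of 6 sites per gene, against 5 over all 8002, with 3.19 against 2.93 sites per 1000 nt, 27.2% against 22.6% covered, and a furthest end at nt 2061 against nt 2051.5. Their median site width was 70.5 nt, against 70 nt. Sites numbered 20 or more on 3 of the 44 (6.82%), against 7.04% of all genes. The nearest to that threshold were CDK12 with 21 sites inside it and CCNF with 18 outside. The reach of genes with 5 or more sites was divided into 3 equal parts, of which the late part ends with a site in every gene. Of the sites, 30.1% lay in the early, 33.2% in the middle and 36.7% in the late part, against 31.4%, 33.8% and 34.8% over all such genes. Without CDK6 and MKI67, which held 68 and 64 of the 376 sites, the shares were 27.5%, 35.7% and 36.9%.

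The kinases of transcription and splicing, all 9 with a site, held 1 to 21 sites and a median of 7. CDK12 and CDK13, which phosphorylate RNA polymerase II with cyclin K, held 21 and 11 sites, with the highest CDK12 score at nt 3125 to 3218 (8.10). CDK19 and CDK8, alternative kinases of the Mediator complex, held 15 sites over 15.7% of a reach of 6090 nt and 2 sites over 45.4% of a reach of only 350 nt. CDK7, the kinase of TFIIH, held 4 sites and CDK9, of the elongation factor P-TEFb, 1. CDK10 held 6. CDK11A and CDK11B held 7 and 10 sites, and these are uncertain because the genes are near-identical copies. Among the remaining kinases CDK16 held 12 sites, CDK14 5 and CDK5, best known from neurons, 3.

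The cyclins of the cell cycle held 1 to 18 sites, with a median of 5 over 7 genes. CCNF, an F-box protein that targets others for degradation, led with 18 sites over 35.1% of the reach. The mitotic cyclins followed, CCNB2 with 8 sites and CCNB1 with 6. On CCNB1 a single site of 571 nt, from nt 1021 to nt 1591, had a score of 10.08, the lowest score on that mRNA was 3.87, and the sites covered 67.9% of the reach. CCNA2 held 5 sites over 13.2%, CCNE2 4 over 13.5% and CCNE1 1. CCND1, the D-type cyclin that activates CDK4 and CDK6, held 1 PAR-CLIP site, at nt 1232 to 1288.

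Among the transcription cyclins, CCNL2 and CCNL1, which act in splicing, held 9 and 7 sites, CCNC of Mediator and CCNT1 held 5 each, CCNK 3 and CCNH, the partner of CDK7, 1. Of the other cyclins, CCNY, a cyclin that binds the plasma membrane, held 13 sites and CCNG1, cyclin G1, 8 over 77.8% of its reach. CCNI held 5, CCNYL1 2 and CCNJL 1. The inhibitor CDKN1A, or p21, held 9 sites, and the highest, at nt 1929 to 2112 (10.31), was also the last. CDKN1B, or p27, held 1 site and CDKN3, a phosphatase that acts on CDK2, 2. Of the symbol-matched partners, CDK5RAP1 held 12 sites, CDK5RAP2, a centrosome protein, 10, CDK5RAP3 and CDK2AP1 6 each, CDK2AP2 4 and CCNDBP1 2.

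Kinase mRNAs carried more PAR-CLIP sites than those of their cyclins in most of the pairs listed here, which are a chosen and incomplete set. The 15 kinase and cyclin pairs were taken from textbook knowledge and listed with the values known, with several genes in more than 1 pair. The kinase had more sites in 11, more sites per 1000 nt of reach in 12 and the larger covered share in 11. Reach ends at the last site, so a few early sites can give high values by these last 2 measures. CDK8, with 2 sites and a reach of 350 nt, was covered over 45.4%, against 12.7% for CCNC, which held 5 sites. For CDK4 and CCND1 the covered share was 85.0% and 4.43%, for CDK2 and CCNE1 47.4% and 4.08%, and for CDK12 and CCNK 28.4% and 10.1%. The order was the opposite for CDK14 and CCNY, with 5.59% and 43.5%, and for CDK1 and CCNB1 it was nearly level, with 65.4% and 67.9%. With 1 PAR-CLIP AEG1 library and genes that are not replicates, no test was made. Amounts of mRNA in the cells were not measured, so more recovery per molecule and more molecules cannot be told apart.

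The few HITS-CLIP sites on these mRNAs were narrow and partly shared with the controls. The 16 sites in both HITS-CLIP AEG1 libraries were 18 to 54 nt wide with a median of 33 nt, against 52 nt over all 12029 HITS-CLIP AEG1 sites. Of the 16, 5 (31.2%, exact 95% interval 11.0 to 58.7) were 25 nt wide or less, against 6.90% of all. Sites this short made up 6.80% and 7.01% of the HITS-CLIP AEG1 libraries, against 65.0% and 67.8% of the HITS-CLIP negative controls. A HITS-CLIP control site overlapped 4 of the 16 (25%, interval 7.27 to 52.4), against 1.29% of all. A PAR-CLIP AEG1 site overlapped 10 of the 16 (62.5%, interval 35.4 to 84.8), against 90.3% of all. Of the 12 sites in replicate 1, 3 (25%, interval 5.49 to 57.2) overlapped a replicate 2 site, against 63.2% of all replicate 1 sites. Of the 4 in replicate 2, 3 (75.0%, interval 19.4 to 99.4) overlapped replicate 1, against 71.3% of all replicate 2 sites. These counts are small, several sites lie on 1 mRNA, and a place found in both replicates is counted once in each. The 4 sites with a control overlap are 2 such places, on CDK6 and MKI67. Short sites on CCNYL1 and MKI67 were also counted in both replicates. The intervals, which cover counting error only, are therefore too narrow.

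On CDK6 both HITS-CLIP AEG1 libraries had a site at the same place near the 5' end. In replicate 1 it spanned nt 257 to 288 with a score of 10.29 and in replicate 2 nt 256 to 288 with 10.37, against nt 261 to 286 with 8.12 in negative control replicate 2 and no site in negative control replicate 1. The AEG1 scores were 2.21 higher on average on the log2 scale (10.33 ± 0.0552, SD, n = 2, against 8.12, n = 1). As read from its values, this scale appears not to be adjusted for library size, though no source states this. The AEG1 libraries held 6378 and 5651 sites, against 90 in negative control replicate 2, and read depth is unknown. How far library size sets the difference was not tested. With 1 control value no test was made. No PAR-CLIP AEG1 site overlapped this place. The nearest PAR-CLIP site ended at nt 234, 22 nt before the replicate 1 site, and the next began at nt 607. Only 1 of the 68 PAR-CLIP sites on CDK6 scored higher than either. The methods differ and the normalization of the score is unknown, so this order does not rank the place by strength. Replicate 2 had a second CDK6 site, at nt 159 to 212, with a score of 6.12, inside the PAR-CLIP site at nt 134 to 234. From nt 289 to the furthest PAR-CLIP end at nt 11690, where 67 of the 68 PAR-CLIP sites lay, neither HITS-CLIP AEG1 library had a site.

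On MKI67 the site shared by the AEG1 libraries was also in both controls. It began at nt 3660 in all 4 HITS-CLIP libraries and was 19 and 18 nt wide in AEG1, against 18 and 20 nt in the controls. The scores were 5.53 and 5.45 in AEG1 and 5.45 and 4.45 in the controls. The groups met at 5.45, and the difference of 0.54 did not exceed the spread of the controls (5.49 ± 0.0567 against 4.95 ± 0.707, SD, n = 2 each). The exact permutation test (two-sided) gave p = 0.667, the smallest that values with this tie allow, so it could not separate the groups. Replicate 1 alone had 3 further sites, at nt 1983 to 2029 (5.45), nt 5350 to 5389 (5.53) and nt 8572 to 8610 (6.04), and the last overlapped no PAR-CLIP AEG1 site. Of the 3 genes among the 44 with sites in both HITS-CLIP AEG1 libraries, 2 therefore also had a control site, against 5.23% of all 1320 genes with sites in both.

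CCNYL1 was the other gene with sites in both, and no control had a site on it. A site began at nt 161 in both HITS-CLIP AEG1 libraries, 20 and 19 nt wide, with a score of 7.49 in each. Its PAR-CLIP AEG1 sites lay far away, at nt 2411 to 2457 (6.58) and nt 2679 to 2698 (6.57). A second site in HITS-CLIP AEG1 replicate 1, at nt 2415 to 2457 with a score of 7.58, lay within the first of these.

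The sites on the 5 genes seen in replicate 1 alone lay mostly within PAR-CLIP sites. CDK4 had one at nt 253 to 305 (6.29) inside the PAR-CLIP site at nt 236 to 388 (8.52), and 4 of its 5 PAR-CLIP sites scored higher. Scores of the HITS-CLIP and PAR-CLIP lists may not be on a common scale. CDK11B had one at nt 148 to 179 (5.71), inside the PAR-CLIP site that began at nt 125. CDKN1B had one at nt 924 to 960 (4.98), inside its only PAR-CLIP site at nt 909 to 978 (4.98). CDK5RAP3 had one at nt 987 to 1004 (4.59), across the start of the PAR-CLIP site at nt 989 to 1079 (4.67). CCND1 was the exception, with a site at nt 1072 to 1104 (4.94) that ended 127 nt before its PAR-CLIP site.

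Other genes of cell cycle control with a site, listed separately from the 44, were all seen in PAR-CLIP, as were nearly all genes. Their share with a HITS-CLIP AEG1 site was also below that over all genes. Of 67 listed genes 56 had a site in any library, and all 56 had a PAR-CLIP AEG1 site, with a median of 8 per gene. In HITS-CLIP AEG1 2 of the 56 had sites in both libraries (3.57%, against 16.1% of all genes) and 8 in either (14.3%, against 27.3%). The 2 were MCM7, a subunit of the replicative helicase, and GSPT1, a translation termination factor, each with 2 and 1 sites. PAR-CLIP sites numbered 20 or more on 5 of the 56 (8.93%, against 7.04% of all genes), namely TOP2A, the DNA topoisomerase of dividing cells, with 34, GSPT1 with 28, ANAPC1 of the anaphase-promoting complex with 26, MDM2 with 26 and MCM2 with 21. None of the 56 had a site in any of the 3 controls, which held sites on few genes. These were 49 and 78 genes in the HITS-CLIP controls and 66 in the PAR-CLIP control, of 8197.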

How the data were processed

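RNA bound to HA-tagged AEG-1 was available as 1 list of called sites per library, from 50 nt single reads of anti-HA precipitates per the labels' protocols. Bowtie is named without a version in the submitters' processing notes. Reference, site caller, thresholds and any use of controls: not given in the sources used here. Values deposited by the authors are positions and a log2 score whose scale was inferred from differences within transcripts and whose normalization is unknown. Read depth is unknown, so no count model was run.

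Starts were taken as 0-based, and positions are printed 1-based on the deposited mRNA. Covered nt are the union of a gene's sites, and reach is the furthest PAR-CLIP AEG1 site end. Symbols were updated from a RefSeq table (GRCh38.p14). Of 8204 transcripts, 8145 matched by accession, 31 by symbol, 20 by synonym and 8 kept their symbol. Overlap meant at least 1 nt. Shares carry exact Clopper-Pearson 95% intervals. Lists are described by counts beside the share over all genes, without a test. Named were all genes with a HITS-CLIP or control site, the 15 with most PAR-CLIP sites, a fixed set of core cell cycle genes and the remaining genes by their counts. The genes and lists were chosen with earlier results of these data known. Overlap counting was tested on simulated data. Python 3.11.15, pandas 2.3.3 and SciPy 1.17.1 were used. Alternatives covered short sites, scores, thresholds, overlap, replicates and the choice of genes. No mRNA or protein sequence was used here, so the planned division of CDK6 sites by coding sequence was not made.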

Additional observations from a re-analysis of the deposited data

How the results depend on the processing

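The difference of 6.5 HITS-CLIP sites per library kept its direction in all 8 alternatives, from 2 (sites above the median score of their library) to 10.5 (without AEG1 replicate 2), and the lowest without 1 library was 2.5. With replicate numbers as pairs (replicate block) it was 6.5 (exact permutation test, p = 0.5, the smallest that 2 pairs allow). Nothing in the labels says the numbers mark shared cultures. The count of 3 genes in both HITS-CLIP AEG1 libraries was 0 with at least 2 sites in each (8.05% of all genes). It was 1 without sites of 25 nt or less (CDK6, against 13.5% of all genes). Without genes seen in a HITS-CLIP control it was 1 (CCNYL1). Over all genes, that filter removes 69 of the 1320 with sites in both (5.23%). With replicate 2 or replicate 1 alone the count was 3 or 8 (20.8% and 22.7% of all genes). With 10 or more PAR-CLIP sites 12 genes counted, against 27.3% of all genes, in place of 3 with 20 or more. PAR-CLIP AEG1 sites above the median score numbered 205 of 408. This filter sets scores of different mRNAs against each other and so moves with each transcript's constant. The share of sites on the 44 mRNAs in HITS-CLIP negative control replicate 1 was 0 without short sites and 0 without MKI67, and in PAR-CLIP AEG1 it was 0.573% without MKI67. The median of 6 PAR-CLIP sites per gene became 3.19 sites per 1000 nt. Overlap of replicate 2 sites with replicate 1 was 75.0%, against 71.3% of all replicate 2 sites. Overlap of HITS-CLIP with PAR-CLIP sites was 18.8% when 50% of each site had to be shared, against 16.6% of all sites. The causes of these shifts were not tested, apart from those that follow from fewer sites counted. As a share of covered nt, HITS-CLIP AEG1 gave 0.105% and 0.0351%, against 0.753% and 1.49% in the controls. The other 37 of 49 alternatives kept direction and side of the threshold, stayed within 1.5 times a count, or, for shares, within the exact interval. Without read counts, a gene with no listed site cannot be called unbound.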

Other observations

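The CDK6 place near nt 257 belonged to a small set of HITS-CLIP sites. Of 4033 sites in HITS-CLIP AEG1 replicate 1 that overlapped a replicate 2 site, 64 overlapped a HITS-CLIP negative control site, 279 overlapped no PAR-CLIP AEG1 site, and 16 met both conditions. These 16 were 18 to 33 nt wide with a median of 20.5 nt, against a median of 57 nt for the 4033, and of these the CDK6 site, at 32 nt, was exceeded in width by that on RELN alone, of 33 nt at nt 127 to 159. RELN encodes a secreted glycoprotein of the extracellular matrix. These sites were chosen after the values were seen.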
